A study of Mus musculus with 9 samples.

Results

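The genes described here encode a signalling route from the lysosome to the nucleus: folliculin (Flcn) and its partners Fnip1 and Fnip2, the Rag GTPases Rraga, Rragc and Rragd, the transcription factors Tfe3 and Tfeb, and Gpnmb, a lysosome-associated glycoprotein gene known as a target of these factors. They were chosen by symbol, and all 9 were found among the 35896 genes of the series. The study inhibited Arp2/3, the nucleator of branched actin, during exit from self-renewal. Its 9 RNA-seq libraries come from the mouse embryonic stem cell line E14, in 3 groups of 3 paired biological replicates. The LIF2i group was kept with the cytokine LIF, the MEK inhibitor PD0325901 and CHIR99021, an inhibitor of glycogen synthase kinase 3 beta. The withdrawn group spent 72 h without all 3 agents. The CK666 group spent the same 72 h without them and with 80 µM CK666, an Arp2/3 inhibitor given from a DMSO stock. All groups shared the E14 line and a medium with 15% serum, and since no label states a DMSO control, drug and solvent cannot be told apart.

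Rag GTPases work as pairs at the lysosome, one of RagA or RagB bound to one of RagC or RagD, and recruit the growth-regulating kinase complex mTORC1 when amino acids are plentiful. Folliculin, held in a complex by FNIP1 or FNIP2, is the GTPase-activating protein for RagC and RagD, and in that state the Rags present TFE3 and TFEB to mTORC1, which phosphorylates them and keeps them in the cytoplasm. In mouse embryonic stem cells this route is known for its part in the exit from self-renewal: without folliculin TFE3 stays nuclear and the cells keep naive genes such as Esrrb. The present data measure RNA, and say nothing of where a protein is or whether it is phosphorylated.

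The stretches of 150 bases before the start site are shown for the pair of members with the largest change after withdrawal (Tfeb and Rragd) and for the members whose promoter held the E-box CACGTG, the core of the sequence that MiT/TFE factors are known to bind. They are RefSeq promoters of build GRCm38.p6, plus strand, 5′ to 3′, with the E-box in capitals: Tfeb at chr17:47736887-47737036, Rragd at chr4:32982848-32982997, Fnip1 at chr11:54438029-54438178 and Rragc at chr4:123917283-123917432.
Tfeb: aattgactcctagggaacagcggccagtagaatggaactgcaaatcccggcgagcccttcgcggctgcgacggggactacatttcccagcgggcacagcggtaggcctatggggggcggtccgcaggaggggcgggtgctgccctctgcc
Rragd: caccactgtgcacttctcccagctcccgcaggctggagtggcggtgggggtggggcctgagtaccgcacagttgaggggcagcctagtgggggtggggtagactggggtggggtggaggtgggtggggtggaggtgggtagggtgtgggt
Fnip1: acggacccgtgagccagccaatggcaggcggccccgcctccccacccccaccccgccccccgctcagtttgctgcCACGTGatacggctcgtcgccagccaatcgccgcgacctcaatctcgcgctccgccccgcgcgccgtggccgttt
Rragc: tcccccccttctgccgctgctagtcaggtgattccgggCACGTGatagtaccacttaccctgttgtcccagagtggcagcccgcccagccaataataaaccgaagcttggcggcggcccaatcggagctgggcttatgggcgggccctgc

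All 9 members matched the RefSeq promoter table, with 12 promoters between them. The windows searched ran from 250 bases before to 50 bases after the start, on both strands. CACGTG lay in the promoters of 2 members, Fnip1 (first base at -75 from the start) and Rragc (at -112), beside 7.15% of all 32851 promoters in the table. In both genes the E-box was followed by the same 3 bases, and the resulting 9 letters CACGTGATA, chosen after the stretches were seen, occurred in 0.128% of all promoters. The full CLEAR box, its inner part TCACGTGA (which overlaps the CLEAR box and the E-box) and the M-box TCATGTG were in the promoters of 0 members, beside 0.326%, 0.974% and 3.77% of all promoters. A match describes letters and shows no binding.

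The libraries held 16894327 to 22550952 estimated counts, and 14648 genes, the 9 members among them, passed the expression filter. The pluripotency genes Pou5f1 and Sox2 summed to 1330 to 2220 TPM (abundance scaled to transcript length and library size) over all libraries, most of it Pou5f1; Sox2 fell by 1.84 on the log2 scale after withdrawal (edgeR adjusted p 0.000586), while Pou5f1 gave -0.24 (adjusted p 0.423). The 6 naive markers summed to 1290 to 3010 TPM with LIF2i, 145 to 258 TPM after withdrawal and 247 to 322 TPM with CK666, and the 4 formative markers to 45.2 to 69.4, 401 to 1130 and 231 to 755 TPM. The 4 markers of fibroblasts or differentiated stroma summed to 5.87 to 13.4, 24 to 31 and 15.1 to 23.7 TPM, in the last 2 groups most of it Thy1, with none at 0 in all libraries, and their part in the members' changes was not tested. The replicate 1 libraries stood apart from replicates 2 and 3 in all 3 groups: they were the deepest of their groups but had the fewest genes with a count above 0, 15637 to 17551 against 18080 to 18636. Values below are TMM-scaled CPM (counts scaled to library size, corrected for library composition), as mean ± SD over 3 libraries, and a change was called at an edgeR adjusted p under 0.05 in a fit with the replicate number as a block.

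Of the 9 members, 5 were called after withdrawal, 4 raised (Flcn, Tfe3, Rragc and Rragd) and 1 lowered (Tfeb), where 40.7% of all genes tested were called. With CK666 against withdrawn cells 1 member was called, Fnip1, which was raised, where 2.05% of all genes were called. Between CK666 and LIF2i 5 were called, 4 raised (Flcn, Fnip1, Rragc and Rragd) and 1 lowered (Tfeb), against a background of 36.9%. Without the block 4, 0 and 4 members were called, where 24%, 0% and 20.2% of all genes were. The groups did not overlap for 5 members between withdrawn and LIF2i libraries (40.7% of all genes) and for 5 between CK666 and LIF2i libraries (37.3%). The comparisons share groups, so their values are given side by side. The median log2 fold changes of the members were 0.25, -0.29 and 0.26 in these 3 comparisons, beside 0.01, 0.02 and 0.01 over all genes. In bulk RNA a change in the number of cells that express a gene and a change in its RNA per cell cannot be told apart.

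**Figure D1:**
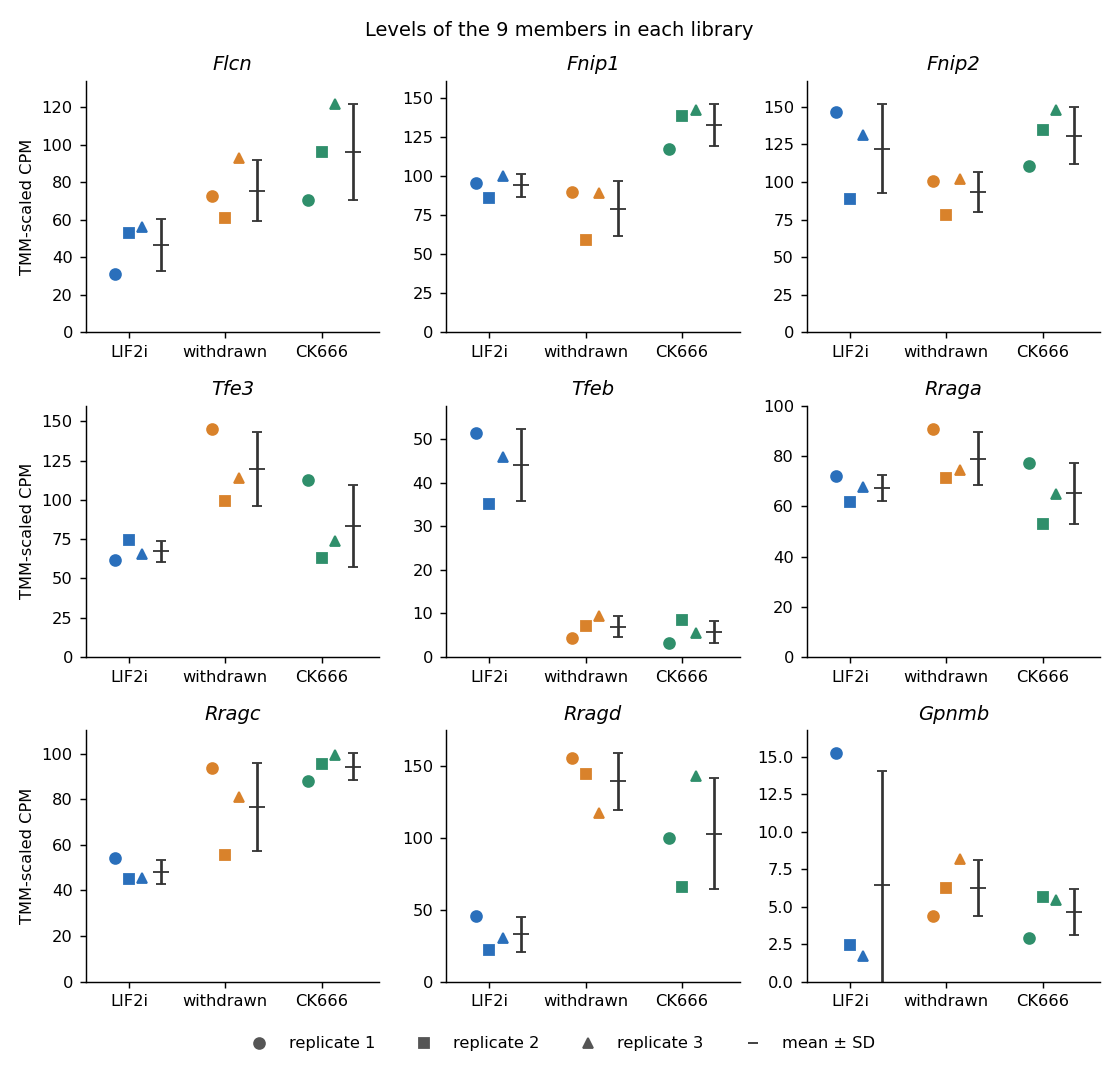
TMM-scaled CPM (y axis, from 0) of each of the 9 members in the LIF2i, withdrawn and CK666 groups, with one symbol per replicate number and the mean ± SD beside each group; the lower SD bar of Gpnmb with LIF2i ends below 0 and is clipped. Tfeb lay at 35.2 to 51.5 CPM with LIF2i and at 3.27 to 9.28 CPM in the other groups, and Rragd at 22.3 to 45.9 against 65.9 to 156 CPM.

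Flcn, the catalytic member of its complex, was at 30.8, 53.1 and 55.9 CPM with LIF2i, in replicate order. It was at 72.4, 61.0 and 93.1 CPM in withdrawn cells and at 70.5, 96.0 and 122 CPM with CK666. Every library without LIF2i was above every library with it, while the withdrawn and CK666 libraries overlapped. Flcn rose by 0.73 on the log2 scale after withdrawal (SE 0.18, 1.66-fold, edgeR adjusted p 0.0096, higher in 3 of 3 pairs). Without the replicate block this call was lost (edgeR adjusted p 0.106), as it was without the replicate 3 libraries (0.0869). Against LIF2i the CK666 group was higher by 1.05 (SE 0.18, 2.06-fold, edgeR adjusted p 0.00171), a call held in 20 of 20 alternatives. CK666 against withdrawn cells gave 0.32 (95% interval -0.08 to 0.71, edgeR adjusted p 0.355), higher in 2 of 3 pairs.

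Fnip1 and Fnip2 encode the partners that hold folliculin in its active complex, and their order across groups differed from that of Flcn. Fnip1 was at 95.8, 85.9 and 100 CPM with LIF2i, at 89.7, 58.8 and 88.9 CPM in withdrawn cells and at 117, 139 and 142 CPM with CK666. All 3 CK666 libraries were above all of the other libraries. CK666 raised Fnip1 by 0.76 against withdrawn cells (SE 0.15, 1.70-fold, edgeR adjusted p 0.0418, higher in 3 of 3 pairs). The call was held in 8 of 20 alternatives and was lost without the block (edgeR adjusted p 0.334), with effective-length offsets (0.0622) and with protein-coding transcripts alone (0.0534). Leaving out libraries gave changes of 0.51 to 0.93, and the call was lost without replicate number 2 (0.385) or 3 (0.368), without any single replicate 2 or 3 library (0.0553 to 0.224) and without the withdrawn replicate 1 library (0.0602). Against LIF2i Fnip1 was 0.50 higher with CK666 (SE 0.15, edgeR adjusted p 0.0278, unblocked 0.0987), a call held in 13 of 20 alternatives with adjusted p up to 0.167, and withdrawal itself gave -0.26 (95% interval -0.60 to 0.08, edgeR adjusted p 0.206).

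Fnip2 was at 146 (replicate 1), 88.9 and 131 CPM with LIF2i, at 101, 78.0 and 102 CPM in withdrawn cells and at 110, 134 and 148 CPM with CK666. The withdrawn libraries were the lowest of their pair in 3 of 3 pairs against both other groups. Fnip2 passed in none of the 3 edgeR comparisons. Its change was -0.38 after withdrawal (95% interval -0.75 to 0.00, edgeR adjusted p 0.103) and 0.50 for CK666 against withdrawn cells (95% interval 0.13 to 0.88, edgeR adjusted p 0.141), where the groups did not overlap; 2 members, Fnip1 and Fnip2, did not overlap in this comparison, beside 16.5% of all genes. The latter passed without the replicate 1 libraries, at 0.65 (edgeR adjusted p 0.0111), without the LIF2i replicate 1 library (0.0414) and without the CK666 replicate 1 library (0.0456). Withdrawal passed without the LIF2i replicate 2 library (-0.51, edgeR adjusted p 0.0498) and without the CK666 replicate 1 library (-0.35, 0.0497). CK666 against LIF2i gave 0.13 (95% interval -0.25 to 0.50, edgeR adjusted p 0.591), and 0.39 without the replicate 1 libraries (0.0286).

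Rraga encodes RagA, and passed in none of the 3 edgeR comparisons. It was at 72.1, 61.7 and 67.8 CPM with LIF2i, at 91.0, 71.4 and 74.7 CPM in withdrawn cells and at 77.4, 52.9 and 65.1 CPM with CK666, with overlap between every pair of groups. Within replicate numbers it was higher in 3 of 3 pairs after withdrawal and lower in 3 of 3 with CK666 against withdrawn cells. The changes were 0.23 for withdrawal (95% interval -0.03 to 0.49, edgeR adjusted p 0.145), -0.29 for CK666 against withdrawn cells (-0.55 to -0.03, adjusted p 0.207) and -0.06 for CK666 against LIF2i (-0.32 to 0.20, adjusted p 0.721). Its close paralog Rragb, taken from the pathway list, rose after withdrawal by 1.18 (SE 0.22, edgeR adjusted p 0.00245), from 19.4 ± 5.53 to 42.7 ± 6.76 CPM. In TPM, Rraga supplied 80.5% ± 3.72 of the summed RagA and RagB RNA with LIF2i, 68.0% ± 3.44 in withdrawn cells and 65.0% ± 3.13 with CK666. The paralogs share sequence, so reads may have been divided between them by the estimate and both levels are uncertain.

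Rragc and Rragd encode RagC and RagD, the Rags on which folliculin acts, and both rose after withdrawal. Rragd was at 45.9, 22.3 and 30.4 CPM with LIF2i and at 156, 145 and 118 CPM in withdrawn cells. With CK666 it was at 100, 65.9 and 143 CPM. The libraries without LIF2i were all above those with it, and the CK666 libraries spread over a range that reached into that of the withdrawn group. Rragd rose by 2.15 (SE 0.27, 4.44-fold, edgeR adjusted p 3e-04, unblocked 0.00198, higher in 3 of 3 pairs) and kept its call in 20 of 20 alternatives, between 1.83 and 2.43. CK666 against LIF2i gave 1.66 (SE 0.26, edgeR adjusted p 0.00134), and CK666 against withdrawn cells -0.49 (95% interval -1.07 to 0.09, edgeR adjusted p 0.328), lower in 2 of 3 pairs.

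Rragc moved less. It was at 54.0, 45.1 and 45.2 CPM with LIF2i, at 93.6, 55.5 and 80.8 CPM in withdrawn cells and at 88.1, 95.4 and 99.6 CPM with CK666. The withdrawn replicate 2 library lay just above the highest library with LIF2i. Rragc rose by 0.65 after withdrawal (SE 0.16, 1.57-fold, edgeR adjusted p 0.0109, unblocked 0.0366), a call held in 16 of 20 alternatives and lost without the replicate 3 libraries (0.125), without the withdrawn replicate 1 or 3 library (0.0605 and 0.056) or without the LIF2i replicate 3 library (0.0608). CK666 against LIF2i gave 0.98 (SE 0.16, edgeR adjusted p 0.00159, held in 20 of 20), and CK666 against withdrawn cells 0.33 (95% interval -0.04 to 0.69, edgeR adjusted p 0.302). Of the exonic bases of Rragc, 7.9% lie under a transcript on the other strand, 4930535I16Rik.

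**Figure D2:**
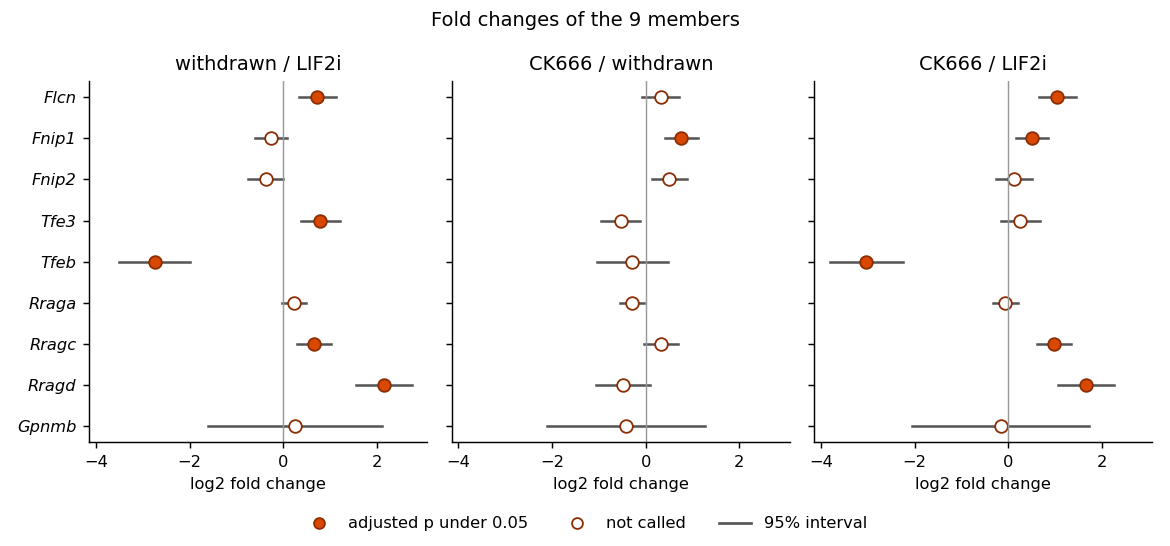
Log2 fold changes (x axis) of the 9 members in the 3 comparisons, with 95% intervals from the edgeR fit; filled points had an adjusted p under 0.05. Tfeb at -2.75 and Rragd at 2.15 lie farthest from 0 for withdrawal, and Fnip1 at 0.76 is the filled point for CK666 against withdrawn cells.

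On the TPM scale the mixture of the RagC and RagD transcripts differed with it. Rragd made up 24.4% ± 5.70 of their summed TPM with LIF2i, 47.4% ± 7.57 in withdrawn cells and 34.0% ± 8.54 with CK666. Withdrawn libraries, at 41.4% to 55.9%, were all above those with LIF2i, at 18.9% to 30.3%. With CK666 the share ran from 24.7% in replicate 2 to 41.5% in replicate 3 and overlapped both other groups. These shares are descriptions with no test.

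Tfe3 and Tfeb, transcription factors that the Rag route holds in the cytoplasm, went in opposite directions after withdrawal. Tfe3 was at 61.7, 74.6 and 65.5 CPM with LIF2i, at 145, 99.1 and 114 CPM in withdrawn cells and at 113, 62.9 and 74.1 CPM with CK666. Withdrawn libraries were all above those with LIF2i, and the CK666 libraries overlapped both groups. Tfe3 rose by 0.79 after withdrawal (SE 0.19, 1.73-fold, edgeR adjusted p 0.0082, unblocked 0.0309, 3 of 3 pairs), and lost the call in 1 of 20 alternatives, without the replicate 3 libraries (0.0738). CK666 against withdrawn cells gave -0.54 (95% interval -0.95 to -0.12, edgeR adjusted p 0.151), lower in 3 of 3 pairs, and passed without the replicate 1 libraries (-0.66, adjusted p 0.0149) and without the LIF2i replicate 1 library (-0.56, adjusted p 0.0159). Between CK666 and LIF2i the change was 0.26 (95% interval -0.16 to 0.68, edgeR adjusted p 0.311).

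Tfeb was at 51.5, 35.2 and 45.9 CPM with LIF2i, at 4.44, 7.06 and 9.28 CPM in withdrawn cells and at 3.27, 8.44 and 5.42 CPM with CK666. No library without LIF2i came near one with it. Tfeb fell by 2.75 on the log2 scale (SE 0.34, edgeR adjusted p 0.000268, unblocked 0.0013, lower in 3 of 3 pairs), to 0.149 of its level with LIF2i, and kept the call in 20 of 20 alternatives. CK666 against LIF2i gave -3.03 (SE 0.35, edgeR adjusted p 0.000205, 20 of 20 alternatives). With CK666 the level differed from that of withdrawn cells by -0.29, within an interval of -1.05 to 0.48 (edgeR adjusted p 0.697). The 15 annotated Tfeb transcripts in the files include several start sites, and Tfeb-202, which begins at the first of them, near the promoter printed above, carried most of the TPM in each group: 83.8% ± 2.21 with LIF2i, 83.2% ± 11.1 in withdrawn cells and 92.9% ± 8.03 with CK666.

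The same family holds Mitf and Tfec, listed as other MiT/TFE factors. Mitf, known as the melanocyte lineage factor, was at 156, 77.3 and 91.8 CPM with LIF2i, at 4.25, 1.61 and 1.62 CPM in withdrawn cells and at 8.25, 4.13 and 3.46 CPM with CK666. It fell by 5.51 after withdrawal (SE 0.19, edgeR adjusted p 9.3e-07, unblocked 0.000206) and was raised by CK666 over withdrawn cells by 1.11 (SE 0.18, edgeR adjusted p 0.0281, unblocked 0.577). Tfec missed the filter, with 0 counts in every LIF2i and CK666 library and 9, 5 and 7 counts in the withdrawn ones. Levels of the family on the TPM scale, which allows genes to be compared, thus changed in their makeup: Tfe3 made up 33.6% ± 7.27 of the summed TPM of the 4 genes with LIF2i, 91.9% ± 2.90 in withdrawn cells and 87.3% ± 5.67 with CK666. Tfeb went from 25.6% ± 4.02 to 6.56% ± 2.98 and 8.63% ± 5.71, and Mitf from 40.8% ± 10.54 to 1.12% ± 0.155 and 4.07% ± 0.56. In each replicate number the summed TPM was highest with LIF2i (194, 82.2 and 99.7 TPM) and lowest with CK666 (88.3, 36.7 and 41.3 TPM).

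**Figure D3:**
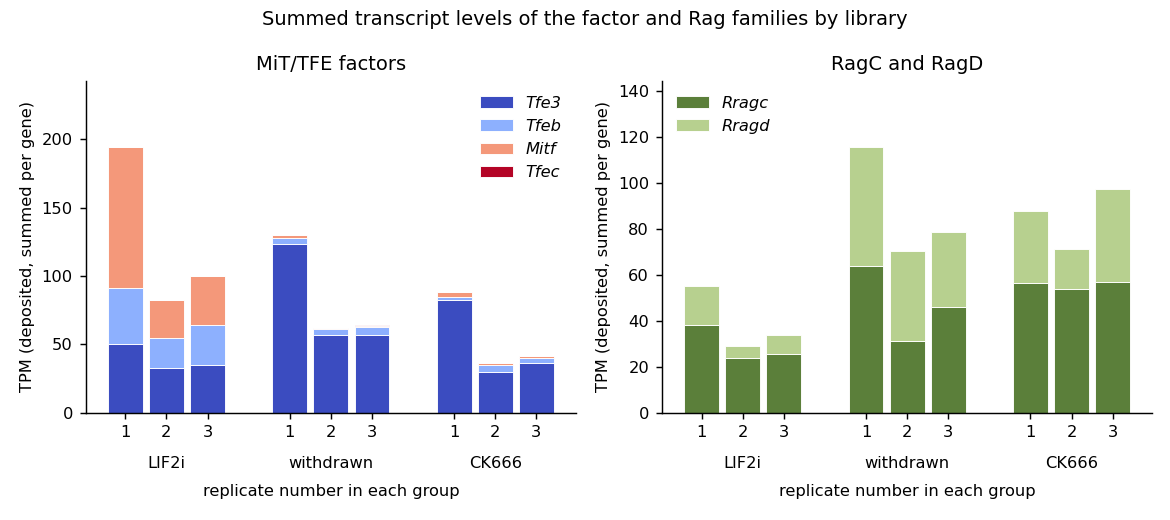
Stacked deposited TPM (y axis, from 0) by library for the 4 MiT/TFE factor genes (left) and for Rragc and Rragd (right), with replicate numbers on the x axis. Tfe3 was 33.6% of the MiT/TFE sum on average with LIF2i and 91.9% after withdrawal, and Rragd went from 24.4% to 47.4% of its pair.

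Gpnmb, introduced above as a known target of these factors, was low throughout. It was at 15.2, 2.46 and 1.70 CPM with LIF2i, at 4.39, 6.23 and 8.15 CPM in withdrawn cells and at 2.89, 5.66 and 5.42 CPM with CK666. The LIF2i replicate 1 library, with 310 counts against 47 and 28 in the other LIF2i libraries, was the highest of all, and without it the other LIF2i libraries were the lowest of all. Withdrawal gave a log2 change of 0.25 (95% interval -1.60 to 2.10, edgeR adjusted p 0.835), without that library 1.84 (edgeR adjusted p 0.00137) and without all replicate 1 libraries 1.81 (0.00194). CK666 against LIF2i gave -0.16 (edgeR adjusted p 0.895) 1.38 without it (0.00794) and 1.41 without all replicate 1 libraries (0.00817). CK666 against withdrawn cells gave -0.41 (95% interval -2.10 to 1.27, edgeR adjusted p 0.81). Macrophages and melanocytes are known for high Gpnmb. The 7 macrophage markers summed to 25.5 to 46.1 TPM with LIF2i, 5.14 to 21.1 TPM in withdrawn cells and 3.60 to 21.2 TPM with CK666, and none was at 0 in all libraries. In the LIF2i replicate 1 library Ptprc was at 0.0187 and Csf1r at 0.0226 TPM, Adgre1, Aif1 and Tyrobp were at 0, with Cd68 at 17.5 and Spi1 at 7.99 TPM. The 5 melanocyte markers summed to 35.3 to 74.2, 4.13 to 10.5 and 3.66 to 7.21 TPM in the 3 groups, most of it Pmel, while Tyr and Tyrp1 stayed at or below 0.0903 TPM in each library. Their part in the Gpnmb values was not tested.

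On the TPM scale the members can be ranked within a group. With LIF2i Rraga was highest, at 68.2 ± 18.0 TPM, followed by Tfe3 (39.2 ± 9.32), Fnip2 (31.6 ± 17.0), Tfeb (30.7 ± 10.03), Rragc (29.2 ± 7.97), Flcn (22.3 ± 4.33), Fnip1 (21.5 ± 4.83), Rragd (10.1 ± 5.82) and Gpnmb (3.72 ± 4.85). From Tfe3 down to Fnip1 the ranges over libraries of neighbours in this order overlapped. Fnip2 was at 50.4 TPM in LIF2i replicate 1, against 17.5 and 26.8 TPM in replicates 2 and 3. Its place in this order rests on that library, where 2 transcripts with a retained intron held 20.8% and 24.3% of its TPM. In withdrawn cells Rraga (82.3 ± 21.1) and Tfe3 (79.1 ± 38.6) led, and Tfeb (4.88 ± 0.846) and Gpnmb (3.00 ± 0.338) came last. With CK666 Rraga (66.2 ± 18.2), Rragc (55.7 ± 1.71), Flcn (49.7 ± 10.4) and Tfe3 (49.4 ± 28.5) had the highest means, and the ranges of neighbours overlapped. Tfe3 at 124 TPM in withdrawn replicate 1, against 56.7 and 57.0 TPM in replicates 2 and 3, widens its SD, and in that library 36.8% of its TPM was on a short annotated transcript of 408 bases. With CK666 the same transcript held 31.0% of Tfe3 TPM in replicate 1, where the gene was at 82.1 TPM against 29.9 and 36.1 TPM in replicates 2 and 3, so its place among the highest means rests on that library.

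As group means, the transcripts behind the levels were mostly the coding ones. Flcn was spread over Flcn-203 (36.9% to 48.9% of the gene's TPM as group means) and Flcn-202 (33.2% to 36.9%). A Flcn transcript with a retained intron, Flcn-205, held 7.49% ± 8.91, 7.48% ± 4.71 and 15.9% ± 11.5 in the 3 groups, with group ranges that overlapped. Rraga has a single annotated transcript and a single exon on chromosome 4 (86575668 to 86577285), and neither it nor any other member apart from Rragc shares exonic bases with another annotated gene. Flcn (59791408 to 59810016) and Fnip1 (54438199 to 54518235) both lie on chromosome 11, Fnip2 on chromosome 3 (79455974 to 79567796), Tfe3 on chromosome X (7762560 to 7775202) and Tfeb on chromosome 17 (47737030 to 47792419). Rragc (123917446 to 123936997) and Rragd (32983037 to 33022180) lie on chromosome 4 and Gpnmb on chromosome 6 (49036546 to 49070929), all in GRCm38.

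Of the other genes of the pathway, 68 in 7 lists, 66 were tested. After withdrawal 8 were raised and 13 lowered, beside 21.1% and 19.7% of all genes, and with CK666 against withdrawn cells 5 were raised and 0 lowered, beside 1.15% and 0.894%. Between CK666 and LIF2i 16 were raised and 7 lowered, beside 19.8% and 17.1%. In the list of Ragulator subunits, Rragb and Slc38a9, the scaffold and amino acid sensor of the Rags, 2 of 7 were raised by withdrawal, Rragb and Lamtor3 (0.54, edgeR adjusted p 0.0446, unblocked 0.552), and 0 lowered. GATOR1 and KICSTOR, which restrain the Rags, had 0 of 6 genes called for withdrawal and 3 of 6 raised between CK666 and LIF2i, among them Nprl3 at 0.52 (SE 0.17, edgeR adjusted p 0.0386, unblocked 0.0936), which shares 17.7% of its exonic bases with Mpg on the other strand.

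Among GATOR2 and the amino acid sensors 3 of 10 were raised and 1 lowered by withdrawal, beside 21.1% and 19.7% of all genes. Castor2, an arginine sensor gene, was raised by 2.19 (SE 0.30, edgeR adjusted p 0.000525), from 9.52 ± 1.99 CPM with LIF2i. Wdr59, a GATOR2 subunit, fell by 0.56 (SE 0.15, edgeR adjusted p 0.0175, unblocked 0.128). Mios, another GATOR2 subunit, rose in all 3 comparisons, at 0.56, 0.68 and 1.24, and was the gene of its list called for CK666 against withdrawn cells (edgeR adjusted p 0.0337, and 0.334 without the block). Its means were 29.7, 43.7 and 69.8 CPM.

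Of mTORC1 and the TSC complex, the GTPase-activating complex that restrains it, 1 of 9 genes was raised and 3 lowered by withdrawal. Over all genes 21.1% were raised and 19.7% lowered. Akt1s1, an mTORC1 inhibitor gene also known as PRAS40, rose by 0.95 (SE 0.19, edgeR adjusted p 0.00339), and Tsc2 fell by 0.59 (SE 0.11, edgeR adjusted p 0.00223, unblocked 0.331). Between CK666 and LIF2i Tsc1 was raised, at 0.77 (SE 0.15, edgeR adjusted p 0.00358), and Deptor, another mTOR inhibitor gene, was lowered, at -0.72 (SE 0.14, edgeR adjusted p 0.00326, unblocked 0.0697).

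C9orf72 and Smcr8 encode relatives of folliculin and its FNIP partners, and Wdr41 the beta-propeller protein bound to them. Wdr41 fell by 0.94 after withdrawal (SE 0.17, edgeR adjusted p 0.00217) and was raised by CK666 against withdrawn cells by 0.81 (SE 0.17, edgeR adjusted p 0.0469, unblocked 0.371). C9orf72 changed by -0.02, 0.13 and 0.10 and Smcr8 by 0.02, 0.06 and 0.08, with edgeR adjusted p from 0.607 to 0.953. Wdr41 shares 12.6% of its exonic bases with other annotated transcripts.

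The largest list held 31 lysosome and autophagy genes of the CLEAR network, the set known to be bound and driven by TFEB and TFE3, of which 30 were tested. After withdrawal 2 were raised and 7 lowered, beside 21.1% and 19.7% of all genes, with a median of -0.11. With CK666 against withdrawn cells 2 of the 30 were raised, Scpep1 and Tpp1, and 0 lowered, beside 1.15% and 0.894% of all genes, with a median of 0.40 beside 0.02 over all genes. The median of the differences within a replicate number was 0.01 in replicate 1, with 16 genes higher and 14 lower, 0.66 in replicate 2, with 29 higher and 1 lower, and 0.50 in replicate 3, with 28 higher and 2 lower. No matching values within a replicate number were computed over all genes. These splits therefore do not show that the list differs from other genes. Scpep1, a lysosomal carboxypeptidase gene, rose by 0.76 (SE 0.12, edgeR adjusted p 0.0261, unblocked 0.532). Both Scpep1 and Tpp1 were lowered by withdrawal, at -1.22 (edgeR adjusted p 6.59e-05) and -0.55 (0.0114). Compared with LIF2i, the CK666 group was still lower for Scpep1, at -0.46 (edgeR adjusted p 0.0132, unblocked 0.41). Tpp1 gave 0.17 in that comparison (edgeR adjusted p 0.371). Between CK666 and LIF2i 6 were raised and 4 lowered, beside 19.8% and 17.1% of all genes, with a median of 0.20. Within replicate numbers 1, 2 and 3 the medians of this comparison were -0.13, 0.27 and 0.33, so replicate 1 had the other sign.

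**Figure D4:**
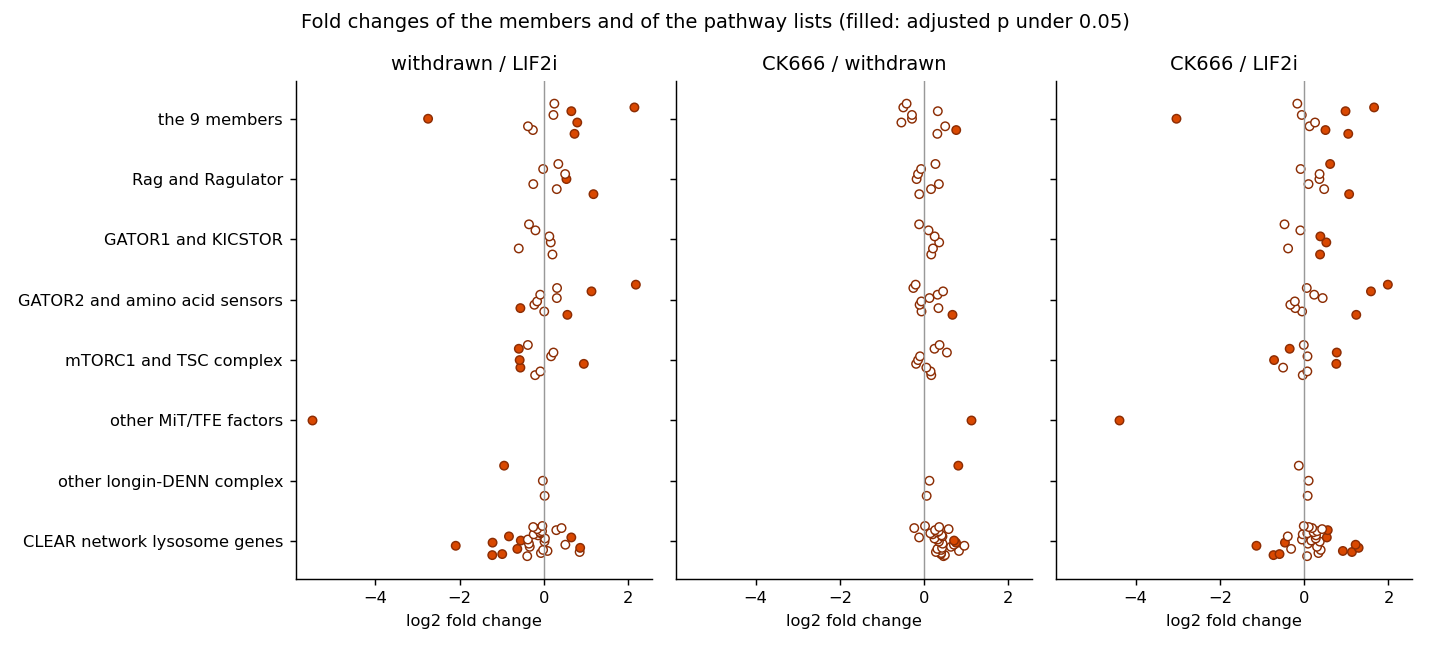
Log2 fold changes (x axis) of the 9 members and of the tested genes of the 7 pathway lists in the 3 comparisons, each point 1 gene, filled where the edgeR adjusted p was under 0.05; vertical spread within a row only separates points. For CK666 against withdrawn cells 5 of the 66 pathway genes and 1 member are filled, and Mitf at -5.51 is the lowest point for withdrawal.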

How the data were processed

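RNA abundance was measured in 9 libraries. Each library's deposited table holds, per the file headers, transcript lengths, effective lengths, estimated counts (not normalised, not whole) and TPM. Per the submitters' processing notes the tools were FastQC, cutadapt 1.8.1, kallisto and sleuth, and the builds named are GRCh38 and mm10. Transcript release and strand setting are not given in the sources used here.

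Transcripts were assigned to genes with GENCODE M21 (GRCm38). Of 119414 transcripts 116640 matched (97.7%), and the unmatched held 0.895% to 1.08% of a library's counts. Estimated counts were summed per gene and rounded. All 9 libraries entered one robust edgeR 4.0.16 quasi-likelihood fit (R 4.3.3, TMM, filterByExpr, Benjamini-Hochberg, 4 residual degrees of freedom) with the replicate number as a block. Design text and titles give the pairing, and deviations of same-numbered libraries correlated at 0.30 to 0.65. SEs were derived from the test statistic. Rank orders and shares use the deposited TPM and carry no test. Alternatives were the fit without the block, DESeq2 1.42.0, other scalings, filters and offsets, coding transcripts alone, and leaving out libraries. On data simulated for CK666 against withdrawn cells over 14434 genes, edgeR recovered 75 of 100 genes changed by 1 and 96 of 100 changed by 2 on the log2 scale, with 10 false calls. The simulated spread followed its trend with expression level, without spread particular to a gene. Replicate effects were those that the block assumes, so recovery in the real libraries can differ. All members are reported; of each list, the called genes at the ends of the range and every gene of lists of up to 3 are named, and Lamtor3, Mios and Tpp1 were named after their values were seen. Some genes that this rule names are not reported here. The members and lists were chosen with earlier results of these data known. Intervals are at the 95% level.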

Additional observations from a re-analysis of the deposited data

How the results depend on the processing

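The calls of Tfeb, Rragd, Flcn and Rragc between CK666 and LIF2i, and of Tfeb and Rragd for withdrawal, were kept under all 20 alternatives. Without the replicate block 3509, 0 and 2966 genes were called for withdrawal, CK666 and CK666 against LIF2i, in place of 5967, 300 and 5408 (for CK666 without the block, 1251 had an unadjusted p under 0.05), and 4, 0 and 4 members in place of 5, 1 and 5. For CK666 against withdrawn cells 1136 genes were called by DESeq2 with the block, 565 with no expression filter and 149 with effective-length offsets; members called were 0 with these offsets and with coding transcripts alone. With libraries left out, the counts ran from 3099 to 6588, 0 to 1811 and 2413 to 6129 genes and from 2 to 6, 0 to 3 and 4 to 7 members. Signs turned for members that were not called. Gpnmb for withdrawal was at -0.052 without the block and at -0.60 to 1.84 with libraries left out. In the latter it ran from -0.88 to 0.13 for CK666 and from -0.96 to 1.41 for CK666 against LIF2i, where Tfe3 ran from -0.033 to 0.50, Fnip2 from -0.13 to 0.39 and Rraga from -0.13 to 0.02. The causes were not tested. Of 540 fold changes under an alternative, 486 kept direction and side of the threshold, 26 lost a call, 10 gained one in the same direction and 18 turned sign, 2 of which (Gpnmb, CK666 against LIF2i) also gained a call. Gpnmb had 28 to 310 counts a library, and which changes that depth can detect was not tested.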

Other observations

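By Pearson correlation of log2 CPM over the 9 libraries, after removing each replicate number's mean and among 10622 coding genes with a mean of at least 5 CPM, the genes most like Flcn were Plekhh3 (0.995), Tpra1 and Gabarapl1 (both 0.992). Gabarapl1, an autophagosome gene of the LC3 family, had means of 47.8 CPM with LIF2i, 75.8 CPM in withdrawn cells and 92.7 CPM with CK666. Most like Tfe3 were Yars2 (0.992), Vps29 (0.990) and Imp3 (0.988), and most like Gpnmb were Ska1 (0.990), Depdc1a (0.964) and Dsg2 (0.955). The points share libraries and group structure, and the pattern of Gpnmb is led by 1 library, LIF2i replicate 1.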
